A study of Mus musculus with 6 samples.

Results

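Endothelial cells line blood vessels, and the genes followed here are 7 that mark them and 3 that encode ligands acting on them. The endothelial genes are *Pecam1*, *Kdr*, *Flt1*, *Tek*, *Tie1*, *Emcn* and *Plvap*, and the ligand genes are *Vegfa*, *Angpt1* and *Angpt2*. They were chosen by name, and all 10 were found among the 19270 genes of the authors' table. Total RNA from mouse incisors, of which the methods name the proximal mesenchyme, was sequenced from 3 control and 3 mutant mice. Tamoxifen was given at 1 month of age and tissue was taken 4 days later in both groups. The mutants were *Gli1-CreER;Arid1b fl/fl*, and the controls are wild type in the labels but *Arid1b fl/fl* mice given the same tamoxifen in the methods. The Cre is active in cells that express *Gli1*, whose descendants include mesenchyme and epithelium of the incisor, and whether endothelial cells lost *Arid1b*, a subunit gene of the BAF chromatin remodelling complex, was not measured here.

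VEGF-A, the product of *Vegfa*, is secreted by many cells and acts on endothelial cells through KDR, while FLT1 binds the same ligand tightly and can limit what reaches KDR. Angiopoietin 1, made mostly by mesenchymal and perivascular cells, activates the receptor TEK and steadies vessels, whereas angiopoietin 2, made mostly by endothelial cells, can block or activate TEK depending on context. TIE1 has a structure related to TEK and modulates its signalling. In the incisor the mesenchymal stem cells lie around the neurovascular bundle, which brings vessels to the continuously growing tooth.

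Each gene has 1 value per group, the authors' mean of a normalized signal over the 3 libraries, so no spread between mice can be given and no test across mice was run. Every difference below is a ratio of these means, and the only error attached to it is a 95% counting interval. For that interval the signal was turned into reads by taking the lowest value of each library as that of no read, a reading of the values under which only 59.4% of the low control means and 46.0% of the low mutant means were whole reads. The libraries would then hold 37123643 to 49594469 reads. The authors' mean of *Arid1b* itself was 97.6 for controls and 38.0 for mutants, a ratio of 0.390. In lists of other cells, the 8 markers of dental epithelium were all past 1.5-fold higher in the mutants, with summed means of 1541 and 10188, while the 6 red blood cell genes were all past 1.5-fold lower, with summed means of 64.4 and 22.6. Their part in the results below was not tested. The Y-linked gene *Ddx3y* was at the lowest mean of the table in the controls and at 65.3 in the mutants, and *Xist* had means of 3368 and 814, so sex and genotype cannot be told apart here. The mutant means held both transcripts, so that group may include mice of both sexes. Group means do not give the number of each sex.

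None of the 10 genes had group means that differed by more than 1.5-fold. Among all 19270 genes, 13.2% were past that ratio, and among the 10311 genes whose mean over both groups was 10 or more the share was 3.06%. Against that share, a count of 0 of 10 is near the background and is no result about these genes. The median log2 ratio of mutant over control was 0.07 for the 7 endothelial genes, with 6 higher and 1 lower, against 0.00220 for all genes, of which 9731 were higher. For the 3 ligands the median was 0.14, with 2 higher and 1 lower. The endothelial median was therefore 0.07 below that of the ligands on the log2 scale, while the ligands spanned -0.08 to 0.30 and lay wholly inside the endothelial range of -0.16 to 0.35. The sign of this difference rests on *Angpt2*, whose mean over both groups was below 10. Over the 2 other ligands the median was 0.03, below the endothelial 0.07. The summed mean of the endothelial genes was 346.0 for controls and 362.8 for mutants, and that of the ligands was 120.7 and 125.2. Scaling the libraries to their totals instead adds 0.06 to every log2 ratio, which gave -0.10 for *Kdr* and -0.02 for *Vegfa*. In RNA from whole tissue, a different number of endothelial cells and a different amount of RNA per cell cannot be told apart.

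**Figure D1:**
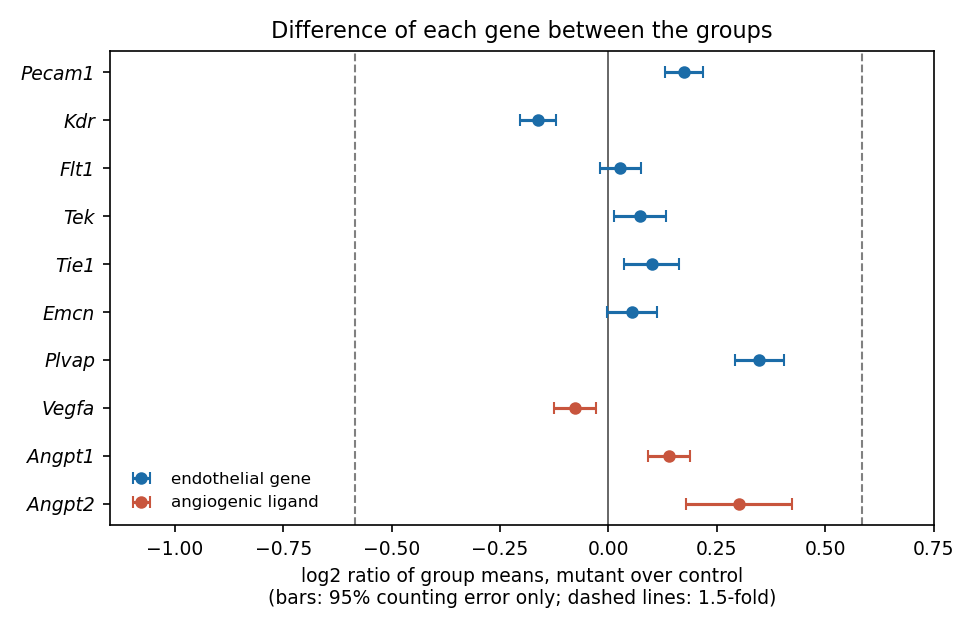
Log2 ratio of the authors' group means, mutant over control, for the 7 endothelial genes (blue) and the 3 ligands (red), with bars for the 95% counting interval only and dashed lines at 1.5-fold. All 10 points lie between the dashed lines, from -0.16 for *Kdr* to 0.35 for *Plvap*.

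Of the VEGF receptor genes, *Kdr* had a lower mutant mean and *Flt1* was close to level. *Kdr*, on chromosome 5 (chr5:75932827-75978458, minus strand, GRCm38), had an authors' mean of 77.9 for controls and 69.6 for mutants. Its log2 ratio was -0.16, with a counting interval of -0.20 to -0.12. *Flt1*, on the same strand of that chromosome (chr5:147561604-147726011), had means of 59.9 and 61.1. Its log2 ratio of 0.03 had a counting interval of -0.02 to 0.07, so no difference above counting error was detectable, although with scaling to the total the ratio was 0.09 and larger than its counting error. Per kilobase of their longest transcript, the level of *Kdr* was 1.51 times that of *Flt1* in controls and 1.33 times in mutants. *Kdr* was the only 1 of the 7 endothelial genes with a lower mutant mean, under every scaling that was tried. Of those 10311 genes, 25.5% had a larger absolute log2 ratio than *Kdr* and 81.6% a larger one than *Flt1*.

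The angiopoietin receptor and its relative had small differences of the same sign. *Tek* (chr4:94739289-94874976, plus strand) had means of 36.4 and 38.2, a log2 ratio of 0.07 with a counting interval of 0.01 to 0.13. *Tie1* (chr4:118471191-118490061, minus strand) had means of 31.4 and 33.7, a log2 ratio of 0.10 with an interval of 0.04 to 0.16. Per kilobase these receptor genes were almost level with each other, at a ratio of *Tek* to *Tie1* of 1.05 in controls and 1.03 in mutants. Larger absolute log2 ratios were held by 55.1% of the same 10311 genes for *Tek* and by 43.2% for *Tie1*.

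The promoters of the VEGF receptor genes *Kdr* and *Flt1* and of the angiopoietin receptor gene *Tek* are shown, as the genes through which the 3 ligands act, by the 250 bases before the RefSeq start (GRCm38.p6), 5′ to 3′ on the strand of the gene. Capitals mark AGGAAG or its reverse complement CTTCCT, called the ETS core here. These letters are a form of the sequence bound by ETS factors, which many endothelial genes carry. Other forms of that sequence were not searched. Both strands were searched.
Flt1 (chr5:147726012-147726261, minus strand): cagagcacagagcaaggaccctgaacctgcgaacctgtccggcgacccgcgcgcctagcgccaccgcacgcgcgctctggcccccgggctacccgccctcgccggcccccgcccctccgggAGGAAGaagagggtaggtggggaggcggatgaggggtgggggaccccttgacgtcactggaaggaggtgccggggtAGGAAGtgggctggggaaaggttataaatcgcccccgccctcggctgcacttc
Kdr (chr5:75978456-75978705, minus strand): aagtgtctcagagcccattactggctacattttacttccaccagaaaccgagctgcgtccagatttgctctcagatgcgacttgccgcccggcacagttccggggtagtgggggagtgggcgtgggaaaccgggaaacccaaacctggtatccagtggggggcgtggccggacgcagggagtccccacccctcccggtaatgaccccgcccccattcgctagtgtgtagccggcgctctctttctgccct
Tek (chr4:94739039-94739288, plus strand): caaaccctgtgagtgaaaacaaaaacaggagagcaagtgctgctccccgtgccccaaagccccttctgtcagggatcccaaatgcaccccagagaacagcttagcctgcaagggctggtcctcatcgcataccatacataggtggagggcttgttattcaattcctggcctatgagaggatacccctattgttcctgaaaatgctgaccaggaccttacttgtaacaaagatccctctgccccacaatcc

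The *Flt1* window held this core at 2 places, beginning 129 and 53 bases before the start. The windows of *Kdr* and *Tek* held neither AGGAAG nor CTTCCT. The core occurs in 29.5% of the 32851 mouse promoter windows of this length. A match in letters is a description and not a site of binding, and a missing match says nothing of the factors. Sequences were found for 6 of the 10 genes, with *Pecam1*, *Plvap*, *Angpt1* and *Angpt2* not among them. *Emcn* had the core at 2 places and *Tie1* at 1, but most of the *Tie1* window lies inside the gene as GENCODE draws it. *Vegfa* has 2 windows in the table, at the outer start and at a start inside the gene, and neither held the ETS core. The bases shortly after the inner start were not found in a GENCODE transcript of *Vegfa*. The core of hypoxia response elements, ACGTG or its reverse complement CACGT, was absent from the outer *Vegfa* window and occurred at 1 place in the inner, against 16.6% of all windows. The GATA motif AGATAA, or TTATCT, was in the outer *Vegfa* window and in 9.99% of all windows, and in none of the windows of the other 5 genes. The bases G and C made up 70.4% of the *Flt1* window, 61.6% of that of *Kdr* and 51.2% of that of *Tek*.

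Of *Plvap*, *Pecam1* and *Emcn*, which encode surface proteins of endothelial cells, *Plvap* differed most. It encodes the protein of the diaphragms that cover fenestrae and caveolae in permeable endothelium. *Plvap* (chr8:71497765-71511752, minus strand) had means of 36.9 for controls and 47.0 for mutants, 1.27-fold higher. The log2 ratio was 0.35 with a counting interval of 0.29 to 0.40, and 8.34% of the 10311 genes had a larger absolute one. *Plvap* and *Gtpbp3* on the opposite strand overlap without shared exon bases, and the means of *Gtpbp3* were 14.6 and 13.1. *Pecam1*, an adhesion molecule of the junctions between endothelial cells that also occurs on platelets and leukocytes (chr11:106654217-106750628, minus strand), had means of 64.7 and 73.0, a log2 ratio of 0.17 with a counting interval of 0.13 to 0.22. *Emcn*, which encodes the sialomucin endomucin of capillary and venous endothelium (chr3:137341067-137432185, plus strand), had means of 38.8 and 40.3. Its log2 ratio of 0.05 had a counting interval that reached 0.11 and included 0, and the ratio was 0.12 with scaling to the total.

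Within the endothelial genes the differences were thus unequal. The level of *Plvap* per kilobase was 1.41 times that of *Kdr* in controls and 2.01 times in mutants, a shift of 0.51 on the log2 scale. *Plvap* stood at 1.69 times *Emcn* in controls and at 2.07 times in mutants. These ratios depend on the length, and with all exons of a gene merged *Plvap* stood at 2.15 and 3.06 times *Kdr* and at 2.59 and 3.17 times *Emcn*, with the same shift between the groups. Relative to *Cdh5*, the gene of the endothelial junction protein VE-cadherin, whose means were 95.2 and 94.4, *Plvap* went from 0.388 to 0.497 and *Kdr* from 0.819 to 0.737. The median log2 difference of the 7 genes relative to *Cdh5* was 0.08, against 0.07 relative to *Cldn5*, a tight junction gene with means of 11.03 and 11.06. Relative to the geometric mean of 18 other endothelial markers it was 0.0094, so no difference of the 7 genes as a group from other endothelial genes is read from these values. Because *Pecam1* also marks platelets and leukocytes, their markers are given beside it. Of 6 macrophage genes 5 had higher mutant means, and their summed mean was 192.4 for controls and 219.7 for mutants. Of the 4 platelet genes found, 3 were higher, with summed means of 16.7 and 17.8, and no gene of either list was past 1.5-fold. Their part in the means of *Pecam1* was not tested.

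Among the ligands, *Vegfa* had the lower mutant mean and both angiopoietins the higher. *Vegfa* (chr17:46016993-46032369, minus strand) had means of 57.8 and 54.8, a log2 ratio of -0.08 with a counting interval of -0.12 to -0.03. With scaling to the total its ratio of -0.02 was smaller than its counting error. *Angpt1* (chr15:42424723-42676977, minus strand) had means of 54.7 and 60.2, a log2 ratio of 0.14 with an interval of 0.09 to 0.19. *Angpt2* (chr8:18690263-18741562, minus strand) had the lowest level of the 10 genes, with means of 8.21 and 10.1, estimated at 951 and 1335 reads over the 3 libraries of each group. Its log2 ratio of 0.30 had the widest counting interval, 0.18 to 0.42. A larger absolute ratio was held by 28.1% of all genes and by 10.4% of the 10311 genes. The mean of *Angpt2* over both groups, 9.16, lay just below the limit for those 10311 genes. *Angpt1* shares 737 exon bases with the antisense gene *Gm17473*, whose means were 0.416 and 0.490. *Angpt2* lies within *Mcph1* on the opposite strand, with means of 11.2 and 12.6 and no shared exon bases, and whether reads were counted by strand is not given in the sources used here.

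*Plvap* and *Angpt2* were the 2 genes of the 10 past 1.2-fold, both higher in the mutants. Of the 7610 genes with means inside the range of the 10 genes, from 9.16 to 73.8, 13.8% were past 1.2-fold in either direction, so 2 of 10 is again near the background. The ratio of *Angpt1* to *Angpt2* per kilobase was 5.56 in controls and 4.98 in mutants. That of *Vegfa* to its receptor gene *Kdr* was 1.27 and 1.35, and that of *Angpt2* to *Tek* 0.295 and 0.346. The ligand and receptor levels come from a mixed tissue, and a ratio between them says nothing of the protein that reaches a vessel.

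**Figure D2:**
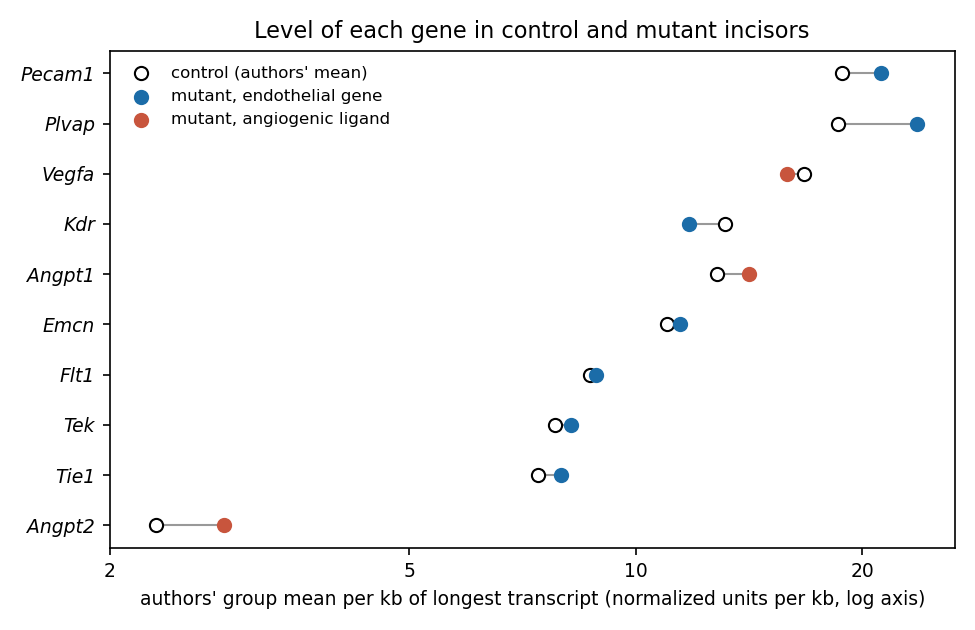
Authors' group mean per kilobase of the longest transcript, on a log axis, in controls (open circles) and mutants (filled, blue for endothelial genes and red for ligands), with genes ordered by the control level. The levels run from 2.31 for *Angpt2* to 18.8 for *Pecam1* in the controls, and the pair of points of *Plvap* is the widest apart of the endothelial genes.

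Levels of different genes were set against each other per length. Per kilobase of the longest transcript, the order in the controls was *Pecam1* (18.8), *Plvap* (18.6), *Vegfa* (16.8), *Kdr* (13.2), *Angpt1* (12.8), *Emcn* (11.0), *Flt1* (8.69), *Tek* (7.81), *Tie1* (7.42) and *Angpt2* (2.31). In the mutants *Plvap*, at 23.6, stood above *Pecam1*, at 21.2, and *Angpt1*, at 14.1, stood above *Kdr*, at 11.8, and the remaining order was as in the controls. Whether neighbours in this order differ beyond the spread between mice cannot be told from group means. The order also depends on the length used. With all exons of a gene merged, *Plvap* led the controls, and *Vegfa* and *Angpt1* also stood above *Pecam1*, while *Angpt2* was lowest by either length. Among all genes with a length, the control levels per kilobase of the genes other than *Angpt2* lay between percentile 61.8 for *Tie1* and percentile 83.1 for *Pecam1*, and *Angpt2* stood at percentile 42.4 in the mutants.

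**Figure D3:**
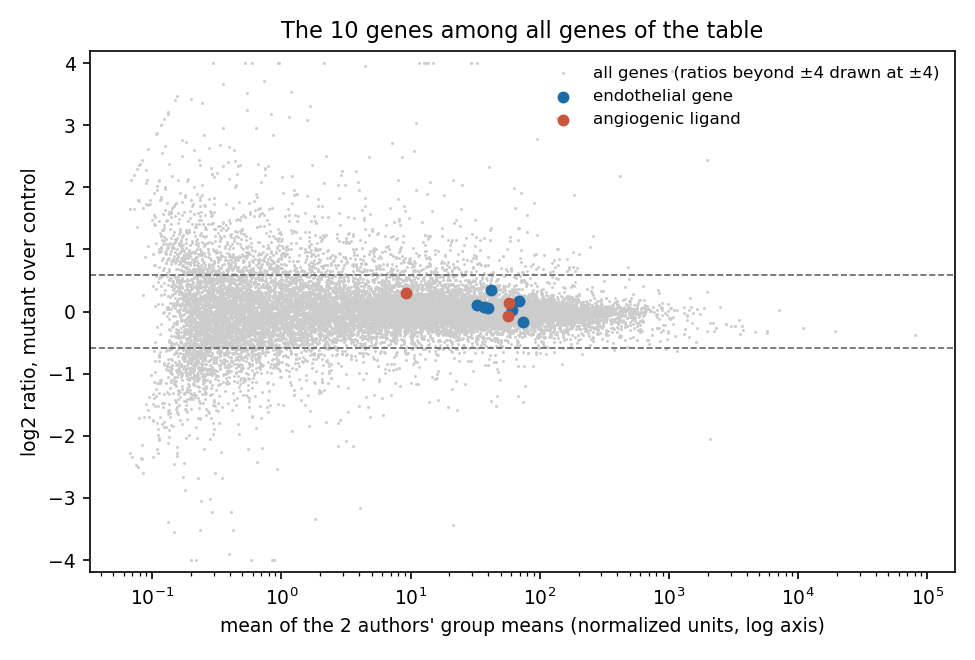
Log2 ratio of mutant over control against the mean of both group means (log axis) for all 19270 genes (grey), with the 7 endothelial genes in blue, the 3 ligands in red and dashed lines at 1.5-fold. The 10 genes lie inside the dashed lines, outside of which 13.2% of all genes lie, and the grey cloud is widest at low means.

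Other genes of these pathways were read from lists. Of 7 other VEGF family genes listed, 3 had higher and 4 lower mutant means, and none was past 1.5-fold, with a median log2 ratio of -0.01. Their ligand genes lay on both sides. *Vegfc* had means of 9.25 and 12.2 (log2 ratio 0.39) and *Pgf* 2.80 and 3.61 (0.37). *Vegfd* had 1.85 and 1.43 (-0.37) and *Vegfb* 15.4 and 14.2 (-0.12). The absolute log2 ratios of *Vegfc*, *Pgf* and *Vegfd* were larger than the 0.35 of *Plvap*, though *Pgf* and *Vegfd* had low means. *Nrp2*, a co-receptor for VEGF proteins, had means of 113.9 and 137.4, and its relative *Nrp1* had 63.9 and 58.5. *Flt4*, the receptor for VEGF-C, had means of 30.9 and 30.6. Of the 3 other genes of the angiopoietin and TIE system none was past 1.5-fold either. *Angpt4*, a further ligand of TEK, had means of 152.8 and 121.1, and at 65.4 per kilobase in the controls its level was above those of *Angpt1* and *Angpt2*. *Ptprb*, the endothelial phosphatase that acts on TEK, had means of 120.4 and 121.8.

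Genes of blood endothelium outside the 7 had a pooled median near 0, with lists that lay on either side of it. Of 18 further endothelial markers none was past 1.5-fold, and their median log2 ratio was 0.05, with 14 higher and 4 lower, or 16 higher when the libraries were scaled to their totals. The most abundant were *Cd93* (means of 118.3 and 106.8), *Cdh5* and *Vwf* (80.3 and 96.9), which encodes the von Willebrand factor that endothelial cells store. Of 12 transcription factors active in endothelium 7 were lower, with a median of -0.12, and none was past 1.5-fold. The ETS factor genes *Ets1* (88.2 and 80.2), *Fli1* (34.3 and 31.6) and *Erg* (27.9 and 24.9) were among the lower ones. Of 7 arterial markers 6 were lower, with a median of -0.24, from -0.37 for *Gja5*, a gap junction gene with means of 20.1 and 15.5, to 0.08 for *Efnb2*. Of 4 venous markers 2 were higher, with a median of 0.14, and of 7 capillary markers 6 were higher, with a median of 0.01. Over these 48 genes together, 28 were higher and 20 lower, with a median of 0.01, and 2 were past 1.5-fold, both higher and both at low means, *Selp* (1.78 and 2.72) and *Rbp7* (0.859 and 1.33).

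**Figure D4:**
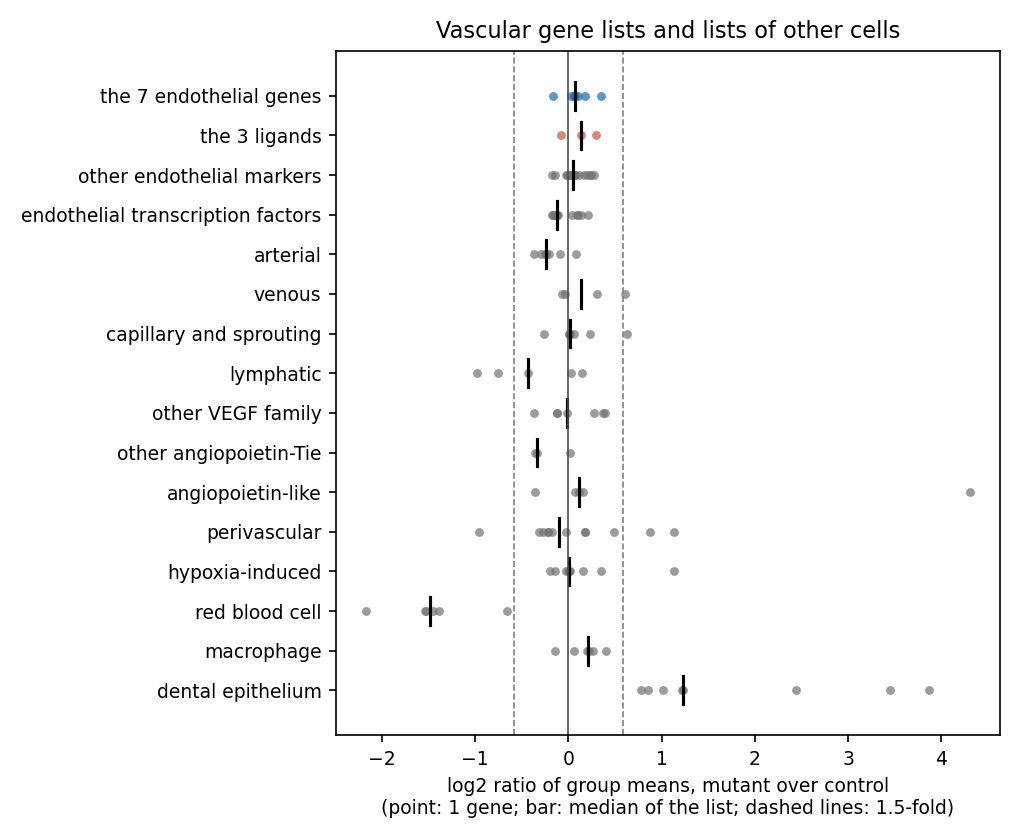
Log2 ratio of mutant over control for each gene (points) of the endothelial genes (blue), the ligands (red) and 14 other lists (grey), with the median of each list as a black bar and dashed lines at 1.5-fold. The blood endothelial lists have medians between -0.24 and 0.14, the red blood cell list lies at a median of -1.49 and the dental epithelium list at 1.23.

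Marker genes of perivascular cells and of lymphatic endothelium had both higher and lower means. Of 12 perivascular genes 5 were higher and 7 lower, with a median of -0.10. *Tagln* (28.3 and 51.8) and *Cnn1* (2.18 and 4.76), contractile genes of smooth muscle, were past 1.5-fold higher, and *Kcnj8*, a potassium channel gene of pericytes (21.5 and 11.0), was past 1.5-fold lower. Past that ratio were 13.2% of all genes and 3.06% of those with a mean of 10 or more. The other higher genes, *Acta2* (63.4 and 88.9), *Myh11* (20.6 and 23.3) and *Mcam* (51.8 and 58.6), stayed within it. *Rgs5* and *Pdgfrb*, markers of pericytes, had means of 411.0 and 340.1 and of 176.8 and 142.5. Of 5 lymphatic markers 2 were higher and 3 lower. The 2 past 1.5-fold lower were *Lyve1*, which also occurs on macrophages (26.9 and 13.6), and *Ccl21a* (0.304 and 0.180). The lymphatic regulator *Prox1* stood at 1.24 and 0.916. The higher ones were *Pdpn* (53.9 and 54.9) and *Reln* (14.4 and 15.9). *Flt4*, which blood and lymphatic endothelium share, differed by -0.01 on the log2 scale.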

How the data were processed

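Per the labels, total RNA from the incisor was isolated with the RNeasy Micro Kit, and libraries were made and sequenced at a core facility. Reads were trimmed by the authors, mapped to the mm10 genome and analysed with Partek Flow. The submitters' processing notes name TopHat2 2.0.8 and mm10. Read counting, annotation, strand and the model are not given in the sources used here. The deposited signal per gene is a normalized value averaged by the authors over the 3 libraries of a group. The upper quartiles of the 6 libraries were between 44.57 and 44.58. The 4 columns of the authors' comparison (p-value, FDR, ratio and fold change) were not used, and 4 numeric columns of the library summary were not used. The tests planned for values per sample could not be fitted, since the table used here holds 1 mean per gene and group.

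Log2 ratios are those of the authors' means. A gene was counted as differing past 1.5-fold, the fold of the methods, and this is no test. A low mean counted as whole reads when its distance from a value of whole reads was under 0.002 times the lowest mean. Counting intervals (95%, Clopper-Pearson on the estimated reads) cover counting error only. They were tested on data simulated with the same reading of the lowest values, so that test cannot judge the reading. Lengths, positions and overlaps are from GENCODE M21 on GRCm38, where 18835 of 19270 names matched 1 gene. Promoters are from RefSeq. The members and the 19 gene lists (142 entries, 4 of them not in the table, and *Figf* is an older name of *Vegfd*) were chosen with earlier results of these data known. Genes outside the 10 that are named are list genes past 1.5-fold with a mean of at least 1 or among the 3 highest means of a list, with *Arid1b*, *Ddx3y* and *Xist*. Others were named after their values were seen. Alternatives were a pseudocount of 1, subtraction of the lowest mean, centring on the median, scaling to the total, other folds and filters on the mean, other reference genes and merged exons. Computation was in Python 3.11.15 (scipy 1.17.1, pandas 2.3.3, numpy 2.4.6) and plots were made with matplotlib 3.10.9.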

Additional observations from a re-analysis of the deposited data

How the results depend on the processing

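The count of 0 genes past 1.5-fold held under a pseudocount of 1, subtraction of the lowest mean, both centrings, scaling to the total and a fold of 2, and it was 2 at a fold of 1.2. Of 50 values of single genes under the alternatives of scaling and pseudocount, 42 stayed within the counting interval, 8 moved beyond it and 0 changed sign. The 8 came from scaling to the total, which moves every gene by 0.06 on the log2 scale. The endothelial median so became 0.13 and that of the ligands 0.20. A shift shared by all genes cannot change the difference between these medians, so its value of -0.07 there is no check of it. Against the geometric mean of 18 other endothelial markers in place of *Cdh5*, the median log2 difference of the endothelial genes was 0.0094. The share of all genes past 1.5-fold was 6.05% with a mean of at least 1, 3.06% with at least 10 and 1.94% with at least 100, and the share of all genes was 31.7% past 1.2-fold and 5.17% past 2-fold.

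No paired analysis was possible because the authors' table holds 1 mean per gene and group. Leaving out each library in turn was not run for the same reason, and whether 1 library decides a value was not tested. Counting error is small beside the differences of *Plvap*, *Pecam1* and *Kdr*, but the spread between mice is not known.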

Other observations

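Secreted proteins that act on vessels but are not among the 10 genes included larger differences than any of them. *Angptl7*, an angiopoietin-like gene that despite its name does not encode a ligand of TEK, had authors' means of 1.12 for controls and 22.2 for mutants, a 19.8-fold ratio, whereas the other 4 angiopoietin-like genes of the table lay within 1.5-fold. Among 9 further genes of pro- and antiangiogenic proteins, *Thbs2*, which encodes the antiangiogenic thrombospondin 2, was the 1 past 1.5-fold, with means of 98.4 and 154.4. Its relative *Thbs1* had means of 726.5 and 922.3. *Serpinf1*, which encodes the antiangiogenic factor PEDF, had means of 832.7 and 641.4, a log2 ratio of -0.38. The median of the 9 genes was -0.05, with 4 higher and 5 lower, or 5 higher when scaled to the total.

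Genes induced by low oxygen, a setting in which *Vegfa* is also induced, had a median log2 ratio of 0.00099 over 9 genes. *Ldha* had means of 177.3 and 176.3, *Ndrg1* 114.4 and 115.6, and *Pgk1* 120.8 and 109.5. *Car9* was the 1 past 1.5-fold, from 0.412 to 0.900, a low level in both groups. The general mesenchyme markers numbered 3 higher and 3 lower, with a median of -0.06 and none past 1.5-fold. Of 5 glial genes only *S100b* was past 1.5-fold (1.18 and 1.83), and of 5 skeletal muscle genes, with summed means of 6.02 and 4.97, 4 were past 1.5-fold lower and 1 higher.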
